A study of Mus musculus with 20 samples.

Results

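The genes by which islet β-cells couple to and hold on to their neighbours were read in pancreatic islets of mice that lack the mitofusins *Mfn1*, *Mfn2* or both in β-cells. They are 9 genes chosen by name from a count table of 28632 genes, namely the connexins *Gjd2* and *Gja1*, the cadherins *Cdh1* and *Cdh2*, the adhesion molecules *Ncam1* and *Epcam*, the tight junction scaffold *Tjp1*, and the contact signalling pair *Epha5* and *Efna5*. RNA sequencing (RNAseq) of whole islets, collected at 12 weeks of age and cultured after isolation, gave 20 libraries. Ctrl had 6 libraries and is labelled wild type, although the study's methods describe controls as mice with *Ins1*-Cre alone or with floxed alleles alone, pooled. β-Mfn1KO (*Mfn1* deleted, 4 libraries), β-Mfn2KO (*Mfn2* deleted, 5 libraries) and β-Mfn1/2DKO (both deleted, 5 libraries) carry the floxed alleles with *Ins1*-Cre, which acts in cells that have used the insulin 1 promoter, so the other islet cells keep both genes. All mice were on the C57BL/6N background, and each group holds both sexes in unlike shares. Ctrl had 3 female and 3 male libraries and β-Mfn1KO 3 female and 1 male. β-Mfn2KO and β-Mfn1/2DKO each had 2 female and 3 male libraries. The study counts these groups in mice, in the same numbers as the libraries, while the labels do not say whether mice were pooled, so p-values measure the spread between libraries.

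β-cells within an islet are joined by gap junctions built of connexin 36, the product of *Gjd2*, through which electrical and calcium signals pass from cell to cell. E-cadherin (*Cdh1*) and N-cadherin (*Cdh2*) are calcium-dependent adhesion molecules that bind the same cadherin on the next cell and are anchored by catenins. NCAM (*Ncam1*) belongs to the immunoglobulin-type adhesion molecules, EpCAM (*Epcam*) marks epithelial cells, ZO-1 (*Tjp1*) links junction proteins to actin, and EphA receptors with their ephrin-A ligands carry signals both ways between touching β-cells. Connexin 43 (*Gja1*) is the widespread connexin of connective tissue, vessels and glia.

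The 9 genes lie on 8 chromosomes of the mouse genome (build GRCm38). *Gjd2* is at chr2:114009601-114013619 on the minus strand with 2 exons, *Gja1* at chr10:56377330-56402513 on the plus strand, *Cdh1* at chr8:106603351-106670246 on the plus strand, *Cdh2* at chr18:16588877-16809246 on the minus strand and *Ncam1* at chr9:49502136-49798925 on the minus strand. *Tjp1* is at chr7:65296165-65527781 on the minus strand, *Epha5* at chr5:84054761-84417382 on the minus strand, *Efna5* at chr17:62604184-62881317 on the minus strand and *Epcam* at chr17:87635979-87651129 on the plus strand. All 9 had a count in every library, and 8 of them reached a mean of 100 normalized counts, which *Epha5* did not.

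The depth of a library, in M (mega-counts), was between 12.4 and 20.3 in Ctrl and between 15.7 and 16.7 in β-Mfn1KO. In β-Mfn2KO it was between 15.1 and 59.5, with replicates 4 and 5 above 40 M, and β-Mfn1/2DKO libraries held 65.5 to 122.9 M. Depth and the double deletion therefore cannot be told apart against Ctrl. The targeted genes fitted the labels, with *Mfn1* at 40.4% of the Ctrl mean in β-Mfn1KO and 47.7% in β-Mfn1/2DKO, and *Mfn2* at 45.0% in β-Mfn2KO and 59.5% in β-Mfn1/2DKO. Markers of β-cells were present in every library, and their summed level was lower in β-Mfn1/2DKO, as given beside *Gjd2*. CPM are counts per 1 M of the library total after its adjustment by the TMM method, unless stated. In β-Mfn1/2DKO replicates 4 and 5 the 18 acinar markers, digestive enzyme genes of the exocrine pancreas, summed to 25966 and 67948 CPM. They summed to 673 to 1138 in replicates 1 to 3. In Ctrl replicate 6 and β-Mfn2KO replicate 5 the mesenchyme and macrophage markers stood apart, as given beside *Gja1*.

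Levels were compared between genes per length, as CPM per kilobase of a gene's merged exons. In Ctrl, *Gjd2* was the highest of the 9 at 83.9 ± 1.48 (SD, n = 6), followed by *Cdh1* at 74.9 ± 5.16 and *Epcam* at 73.2 ± 4.51, which did not differ from each other beyond their spread. *Tjp1* at 18.5 ± 0.796, *Cdh2* at 16.9 ± 0.552 and *Ncam1* at 10.1 ± 0.755 formed a middle tier. *Efna5* was at 2.79 ± 0.448, *Gja1* at 0.461 ± 0.465 and its neighbour below, *Epha5*, at 0.0144 ± 0.00627. The main β-cell connexin thus had the highest level per length in Ctrl islets, and the receptor *Epha5* was near the limit of counting while its ligand *Efna5* was not. In β-Mfn1/2DKO the order of the upper tier was *Cdh1* at 86.7 ± 11.7 (SD, n = 5), *Epcam* at 75.9 ± 6.45 and *Gjd2* at 59.6 ± 11.7. *Cdh2* at 16.9 ± 0.654 and *Tjp1* at 16.8 ± 1.28 did not differ beyond their spread there, and *Ncam1* was at 13.4 ± 1.28. The order within a tier depends on the length used, since per kilobase of the longest coding transcript *Epcam* (78.7) came above *Cdh1* (77.3) and *Cdh2* (28.1) above *Tjp1* (20.5) in Ctrl.

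**Figure D1:**
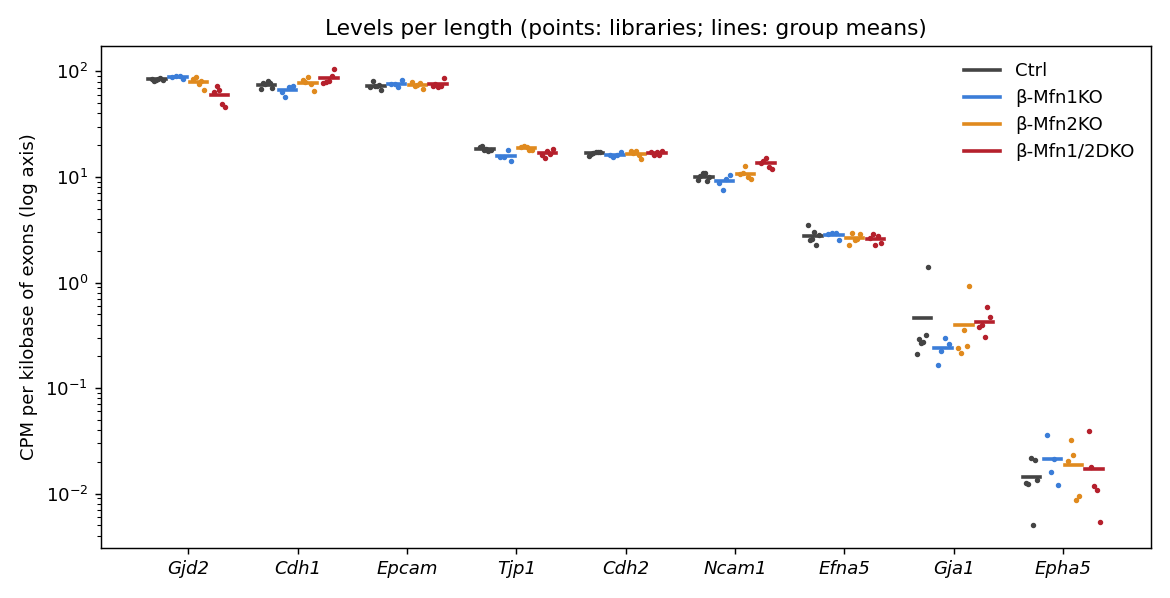
Level of each of the 9 genes in CPM per kilobase of merged exons, on a log axis, with a point for each library and a line for each group mean. *Gjd2*, *Cdh1* and *Epcam* share the top tier in Ctrl, and *Gjd2* in β-Mfn1/2DKO falls below the other two, with a mean of 59.6.

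Each gene was then compared between genotypes with edgeR's quasi-likelihood test across all genes, on unscaled counts with TMM factors in the fit. Values are shown as normalized counts, which are counts scaled by the TMM method to the mean library size. A gene passed at a Benjamini-Hochberg adjusted p under 0.05 over all 28632 genes, and was called if its fold change was also over 1.5. In β-Mfn1/2DKO against Ctrl, 2 of the 9 genes passed, *Gjd2* lower and *Ncam1* higher, and none was called. Over all genes 16.5% passed, 6.86% lower and 9.59% higher, and 5.21% were called, so the share of the 9 that passed was near that of the table. The median log2 fold change was 0.00019 over the 9 and 0.03 over all genes whose mean reached 100 normalized counts. In 2 of the 9 the libraries of the 2 genotypes did not overlap, against 20.6% of the 12274 genes whose mean reached 100 normalized counts.

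*Gjd2* encodes connexin 36, the gap junction protein of β-cells, and its mRNA was lower in β-Mfn1/2DKO. In Ctrl its normalized counts had a lowest value of 9735, a median of 9987 and a highest of 10212. They were 10540, 10765, 10796 and 10171 in β-Mfn1KO. They were 10091, 10474, 9120.5, 9615 and 7916 in β-Mfn2KO. The first 3 groups sat close together apart from the lowest β-Mfn2KO library, replicate 5. In β-Mfn1/2DKO the values were 7680.4, 8591, 7983, 5799.9 and 5458, so that every one of the 5 libraries lay below every Ctrl library. The mean fell from 9999.8 ± 176 (SD, n = 6) to 7103 ± 1390 (SD, n = 5), which is 71.0% of Ctrl. The log2 fold change was −0.49 (SE 0.09, 95% interval −0.69 to −0.30), with an adjusted p of 0.00064 in edgeR.

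The 2 lowest *Gjd2* libraries of β-Mfn1/2DKO were replicates 4 and 5, the libraries with the acinar signal. Without them the log2 fold change was −0.28, with an adjusted p of 0.007 in edgeR. All 18 acinar markers were higher in β-Mfn1/2DKO, with a median log2 fold change of 3.72, and their sum ranged over 431 to 2957 CPM in Ctrl, 164.5 to 1022 in β-Mfn1KO, 769 to 11185 in β-Mfn2KO and 673 to 67948 in β-Mfn1/2DKO. All 10 β-cell markers, such as the insulin genes, were lower in β-Mfn1/2DKO, by −2.60 to −0.38 on the log2 scale with a median of −1.06. Their sum ranged over 146280 to 233866 CPM in Ctrl and 64748 to 87864 in β-Mfn1/2DKO, and the groups did not overlap. The *Gjd2* change lay within that range and was smaller than the median of the β-cell markers. In counts of whole islets, fewer β-cells and less RNA per β-cell cannot be told apart. The study reports no significant difference in β-cell mass between genotypes, measured on pancreas sections and not on these islets. The part of either in the *Gjd2* value was not tested. With depth class (above 40 M counts) as a covariate, which rests on 2 β-Mfn2KO libraries, the change was −0.32 with an adjusted p of 0.39 in edgeR.

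**Figure D2:**
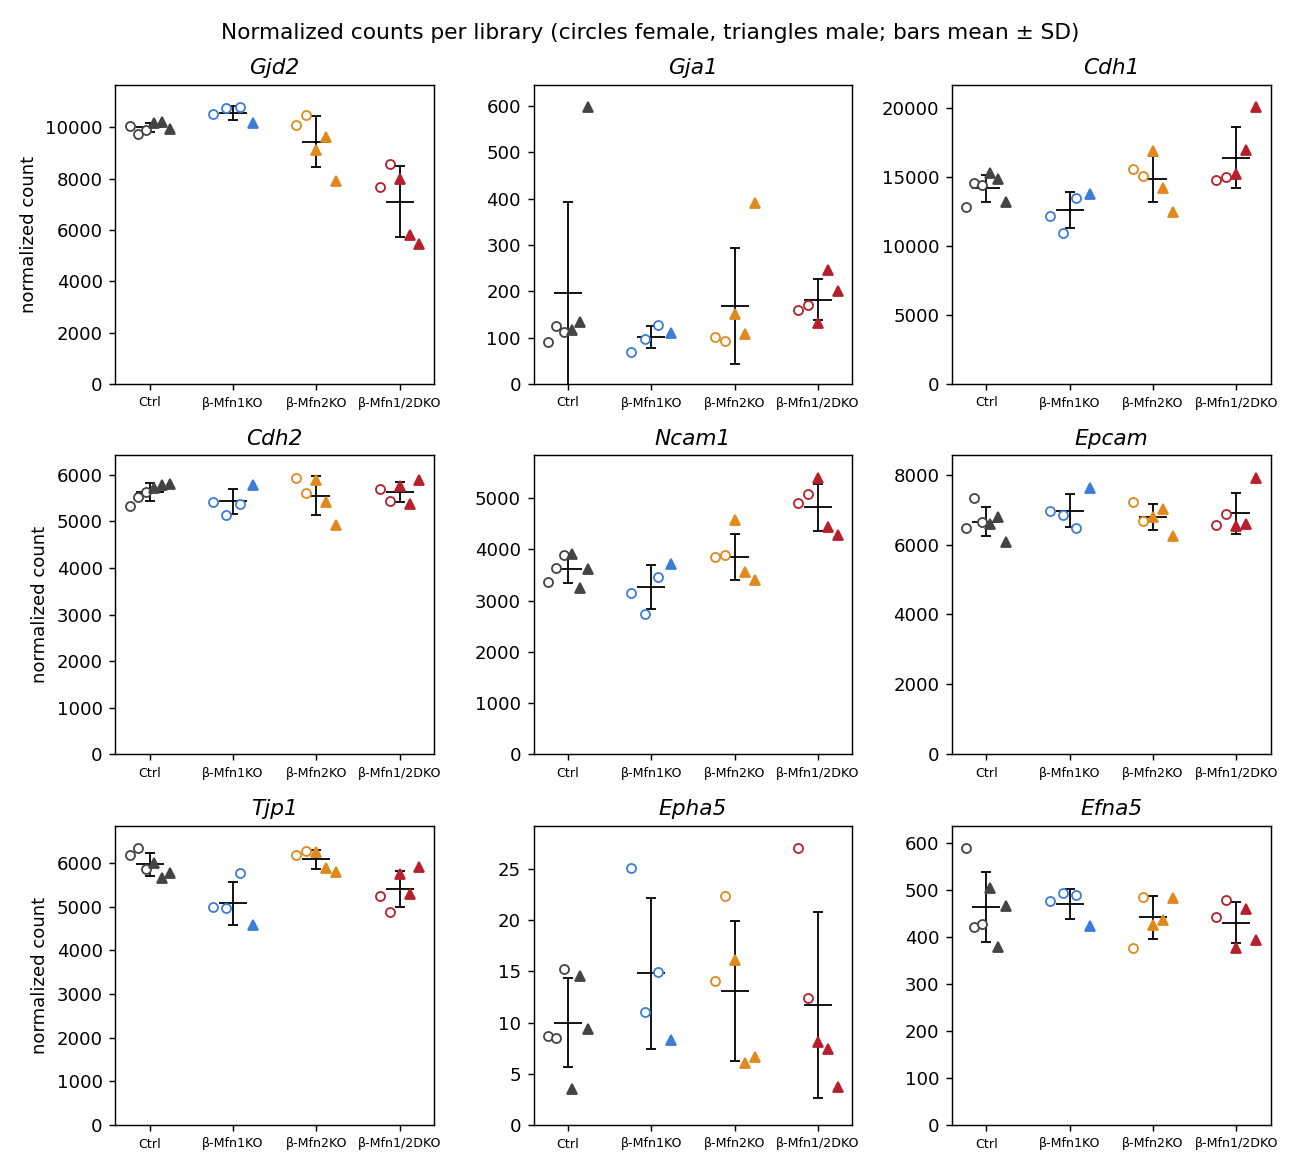
Normalized counts of the 9 genes in each library, by genotype, from an axis that starts at 0, with open circles for females, filled triangles for males and bars for the mean ± SD (the *Gja1* bar of Ctrl is cut at 0). The 5 β-Mfn1/2DKO libraries lie below all Ctrl libraries for *Gjd2* (5458 to 8591 against 9735 to 10212) and above them for *Ncam1* (4283 to 5397 against 3250 to 3915).

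The stretch before the *Gjd2* start is shown because this is the member that fell. It covers the 250 bases upstream of the RefSeq start on GRCm38.p6, chr2:114013620-114013869, read 5′ to 3′ on the minus strand. Capitals mark the matches found.
Gjd2: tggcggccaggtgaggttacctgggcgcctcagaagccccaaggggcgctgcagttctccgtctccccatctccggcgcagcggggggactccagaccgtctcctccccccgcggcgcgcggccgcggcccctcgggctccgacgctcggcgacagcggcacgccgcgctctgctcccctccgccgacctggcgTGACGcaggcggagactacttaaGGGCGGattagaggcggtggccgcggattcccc
Of these bases 74% were G or C, against a median of 52.4% over the upstream bases of 32851 promoters. The GC box letters GGGCGG occurred 1 time, with the first base 33 bases before the start, and occurred on either strand in 32.7% of all promoters. The core letters TGACG of the cAMP response element occurred 1 time, 56 bases before the start, and in 17.8% of promoters. The TATA box letters TATAAA, the CCAAT box letters CCAAT, the E-box CACGTG and the homeodomain core TAATTA were searched on both strands and had no match in this window. They occurred in 12.4%, 33.9%, 6.02% and 4.84% of promoters. A match is only a description of the letters. A noncoding gene on the opposite strand, A530058N18Rik, has 2 entries that overlap *Gjd2* exons by 57 and 18 bases, with mean counts of 0.618% and 13.2% of the *Gjd2* count. Whether counting used strand is not given in the sources used here, and no stretch of 75 bases of *Gjd2* was shared with another gene.

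*Gja1* encodes connexin 43, and its normalized counts were low and uneven. In Ctrl the lowest value was 90.1 and the median 120.3, while replicate 6 stood at 597.7. They were 69.8, 96.2, 126.7 and 110.9 in β-Mfn1KO, and 101.6, 91.6, 150.8, 106.9 and 389.7 in β-Mfn2KO. In β-Mfn1/2DKO they were 159.9, 169.6, 130.5, 246.5 and 199.99, a range that overlapped that of Ctrl only through replicates 5 and 6 of Ctrl. Against Ctrl the log2 fold change was −0.11 (SE 0.42, 95% interval −0.98 to 0.77), with an adjusted p of 0.90 in edgeR.

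The sign of the *Gja1* value depended on single libraries and on the fit. With the replicate block the log2 fold change was 0.66 (adjusted p = 0.071 in edgeR). With the block and without β-Mfn1/2DKO replicates 4 and 5 it was 0.70 (adjusted p = 0.0497). Without Ctrl replicate 6 it was 0.65 (adjusted p = 0.18 in edgeR) and without β-Mfn1/2DKO replicate 3 it was 0.02 (adjusted p = 1.0). It was −0.32 without β-Mfn1/2DKO replicates 4 and 5 (adjusted p = 0.75) and −1.23 with depth class as a covariate (adjusted p = 0.47). Leaving out Ctrl replicate 6 together with β-Mfn2KO replicate 5, a choice made after the data were seen, gave 0.65 with an adjusted p of 0.019. In these 2 libraries the 9 mesenchyme markers summed to 333.6 and 362.3 CPM, against 24.6 to 115.0 in the other 18 libraries, and the 7 macrophage and leukocyte markers to 610.1 and 831.2 CPM, against 98.8 to 226.2. Between β-Mfn1/2DKO and Ctrl 1 of 9 mesenchyme markers rose and none fell, with summed ranges of 59.3 to 115.0 and 25.4 to 333.6 CPM, and none of the 9 was at 0 in all libraries of a group. In β-Mfn1KO the mesenchyme sum ranged over 24.6 to 53.3 CPM and in β-Mfn2KO over 28.2 to 362.3. Of the macrophage markers none rose and 1 of 7 fell. The part of these cells in the *Gja1* values was not tested. The *Gja1* to *Gjd2* count ratio within a library was 0.00898 to 0.0602 in Ctrl, 0.00662 to 0.0117 in β-Mfn1KO, 0.00874 to 0.0492 in β-Mfn2KO and 0.0164 to 0.0425 in β-Mfn1/2DKO, so *Gjd2* had the larger count in every library.

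**Figure D3:**
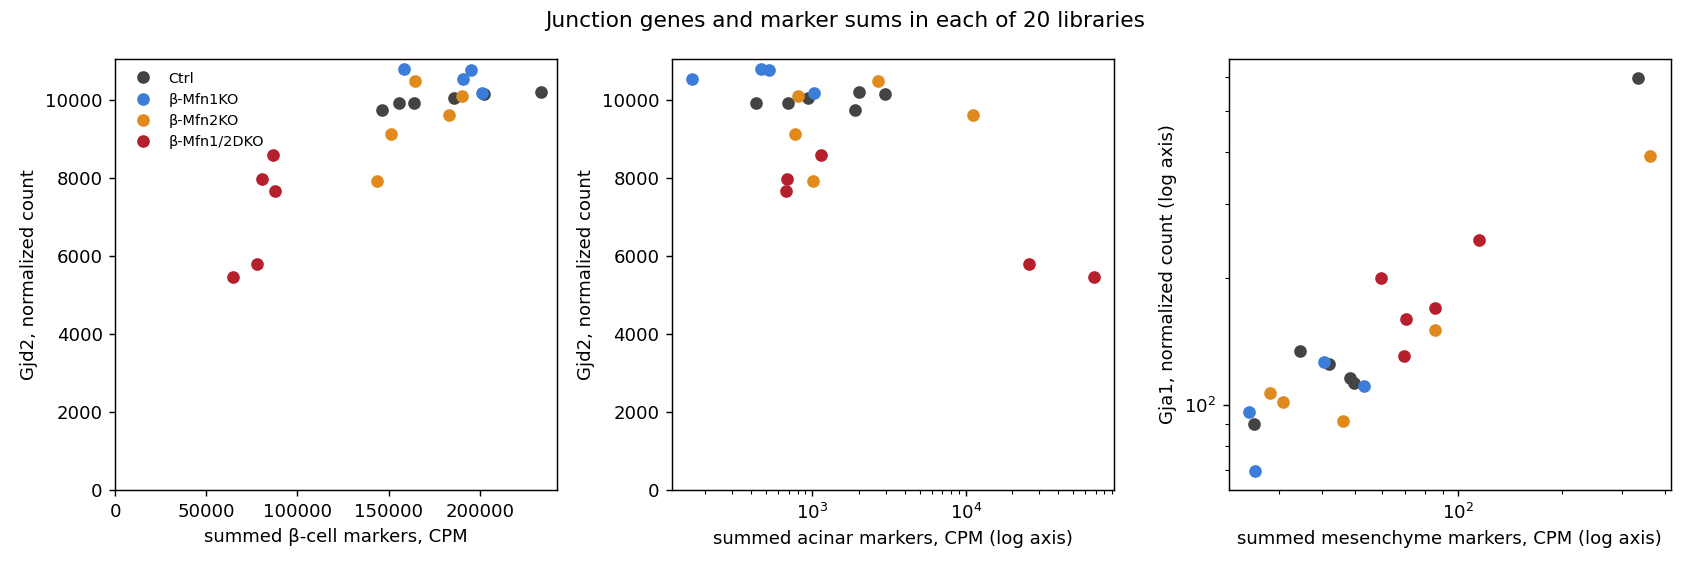
*Gjd2* normalized counts against the summed CPM of 10 β-cell markers (left) and of 18 acinar markers (middle, log axis), and *Gja1* normalized counts against 9 mesenchyme markers (right, both axes log), with a point for each of 20 libraries. The 2 β-Mfn1/2DKO libraries with the lowest *Gjd2* counts have the highest acinar sums (25966 and 67948 CPM), and the 2 libraries with the highest *Gja1* counts have the highest mesenchyme sums (333.6 and 362.3 CPM).

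Of the cadherins, neither passed in β-Mfn1/2DKO against Ctrl. *Cdh1* had normalized counts with a lowest value of 12804, a median of 14508 and a highest of 15263 in Ctrl, and 14777, 15025, 15250, 16950 and 20072 in β-Mfn1/2DKO. The upper libraries of β-Mfn1/2DKO, replicates 4 and 5, were again those with the acinar signal, and the groups overlapped. The log2 fold change was 0.21 (SE 0.09, 95% interval 0.03 to 0.39), with an adjusted p of 0.11 in edgeR, and it passed with total-count scaling (0.35, adjusted p = 0.0031), without β-Mfn1/2DKO replicate 1 (0.27, adjusted p = 0.048) and without β-Mfn2KO replicate 5 (0.24, adjusted p = 0.046). It was 0.11 without β-Mfn1/2DKO replicates 4 and 5 (adjusted p = 0.53) and 0.46 with depth class as a covariate (adjusted p = 0.11). Relative to TMM, the library scaling factors of total-count scaling shift all genes in this comparison by 0.14 on the log2 scale. Duct markers, genes of the epithelium in which *Cdh1* is also used, rose in 3 of 8 and fell in none, with sums of 635 to 842 CPM in Ctrl and 837 to 1036 in β-Mfn1/2DKO. *Cdh2* had the change nearest to 0 of the 9. Its normalized counts were 5324 to 5809 in Ctrl with a median of 5676, and 5703, 5449, 5764, 5367 and 5886 in β-Mfn1/2DKO, with a log2 fold change of 0.00019 (SE 0.05, 95% interval −0.11 to 0.11). The *Cdh2* to *Cdh1* count ratio within a library, which does not depend on scaling, was 0.375 to 0.442 in Ctrl and 0.293 to 0.386 in β-Mfn1/2DKO, and these ranges overlapped. In β-Mfn2KO it was 0.349 to 0.396, which also overlapped β-Mfn1/2DKO, and in β-Mfn1KO 0.398 to 0.470, which did not.

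*Ncam1* encodes NCAM, which in islets is found on endocrine cells and on nerve fibres, and its mRNA was higher in β-Mfn1/2DKO. Its normalized counts in Ctrl had a lowest value of 3249.5, a median of 3628 and a highest of 3915. They were 3146, 2728, 3459.5 and 3720.1 in β-Mfn1KO and 3845, 3887, 4574, 3555 and 3396 in β-Mfn2KO. In β-Mfn1/2DKO they were 4907, 5072, 5397, 4434 and 4283. All 5 of these were above every Ctrl library, and 1 β-Mfn2KO library, replicate 3, reached into their range. The mean was 3609.9 ± 271 (SD, n = 6) in Ctrl and 4819 ± 459 (SD, n = 5) in β-Mfn1/2DKO, a log2 fold change of 0.42 (SE 0.08, 95% interval 0.25 to 0.59) with an adjusted p of 0.00096 in edgeR.

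The 2 libraries with the acinar signal had the lowest *Ncam1* values of β-Mfn1/2DKO, and without them the log2 fold change was 0.53 (adjusted p = 0.00028 in edgeR). With depth class as a covariate it was 0.66 (adjusted p = 0.012), a value more than 1.5 times the first. Schwann and neural markers rose in 1 of 7 and fell in none, with log2 fold changes of −0.19 to 1.38, a median of 0.79 and sums of 10.2 to 12.1 CPM in Ctrl and 11.9 to 21.6 in β-Mfn1/2DKO. Markers of α-cells rose in 1 of 6, with sums of 15969 to 50947 CPM in Ctrl and 32064 to 53909 in β-Mfn1/2DKO. The log2 fold changes of all 6 were above 0, at 0.27 to 0.45 with a median of 0.34, and the *Ncam1* value lay within that range. The part of these cells in the *Ncam1* value was not tested. Of the 75-base stretches of *Ncam1* transcripts 1.98% were shared with another gene, and an opposite-strand gene, Gm11149, that overlaps 417 of its exon bases had 0.048% of its count. The *Ncam1* to *Gjd2* count ratio, picked after the values were seen, was 0.318 to 0.392 in Ctrl, 0.253 to 0.366 in β-Mfn1KO, 0.370 to 0.502 in β-Mfn2KO and 0.590 to 0.785 in β-Mfn1/2DKO.

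*Epcam* had normalized counts of 6083 to 7334 in Ctrl with a median of 6615, and 6570.1, 6875, 6537, 6576 and 7915 in β-Mfn1/2DKO, where 1 library, replicate 5, stood above the other 4. Its log2 fold change was 0.05 (SE 0.06, 95% interval −0.07 to 0.18), with an adjusted p of 0.65 in edgeR. With total-count scaling it was 0.19 (adjusted p = 0.0099), close to the shift of all genes under that scaling.

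*Tjp1* encodes ZO-1, a scaffold of tight and gap junctions. Its normalized counts were 5657 to 6344 in Ctrl with a median of 5932, and 5244, 4887, 5752, 5291 and 5908 in β-Mfn1/2DKO, with 3 of the 5 below all Ctrl libraries. The log2 fold change was −0.14 (SE 0.06, 95% interval −0.26 to −0.02), with an adjusted p of 0.11 in edgeR. It passed with DESeq2 (−0.17, adjusted p = 0.015), with genes of low count filtered out (−0.16, adjusted p = 0.040) and with limma on the deposited normalized values (−0.26, adjusted p = 0.016), while total-count scaling gave −0.0030 (adjusted p = 1.0) and depth class as a covariate −0.04 (adjusted p = 0.99). *Tjp1* also passed with the replicate block and without β-Mfn1/2DKO replicates 4 and 5 (−0.21, adjusted p = 0.042 in edgeR). The low-count filter dropped *Epha5*, and 3 of the 8 members it kept passed, against 35.2% of the 15267 genes it kept. The *Tjp1* to *Cdh1* ratio within a library was 0.381 to 0.483 in Ctrl, 0.332 to 0.455 in β-Mfn1KO, 0.371 to 0.467 in β-Mfn2KO and 0.294 to 0.377 in β-Mfn1/2DKO, whose range overlapped those of both single knockouts but not that of Ctrl.

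The receptor *Epha5* had normalized counts of 3.51 to 15.2 in Ctrl with a median of 9.03, and 27.1, 12.4, 8.11, 7.45 and 3.74 in β-Mfn1/2DKO. In reads these were 1 to 5 counts a library in Ctrl and 6 to 88 in β-Mfn1/2DKO, and the groups overlapped (log2 fold change 0.25, SE 0.50, 95% interval −0.78 to 1.29). The coefficient of variation of the normalized counts was 43.6% in Ctrl and 77.3% in β-Mfn1/2DKO, the deepest group. Its ligand *Efna5* had 378.9 to 590.2 in Ctrl with a median of 447.7, and 444, 480.3, 377.5, 459.7 and 393.8 in β-Mfn1/2DKO. The groups overlapped, and the log2 fold change was −0.11 (SE 0.10, 95% interval −0.32 to 0.10), with an adjusted p of 0.55 in edgeR. The *Efna5* count was 16.4 to 144 times that of *Epha5* over all libraries.

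The loss of a single mitofusin was asked about next. In β-Mfn1KO against Ctrl none of the 9 genes passed in edgeR, with 1 at an unadjusted p under 0.05, against 0.0279% of all genes that passed. In β-Mfn2KO against Ctrl none passed and none had an unadjusted p under 0.05, against 0.0559% of all genes. DESeq2 and limma also passed none of the 9 in either comparison. *Gjd2* was at 106% of the Ctrl mean in β-Mfn1KO (log2 fold change 0.08, SE 0.10) and 94.4% in β-Mfn2KO (−0.08, SE 0.09). *Ncam1* had log2 fold changes of −0.15 (SE 0.09) and 0.09 (SE 0.08) in these groups, and *Cdh1* of −0.17 (SE 0.09) and 0.07 (SE 0.09). The gene with the small unadjusted p in β-Mfn1KO was *Tjp1*, with values of 4994, 4979.5, 5764 and 4577, of which 3 of 4 were below all Ctrl libraries, a difference of −0.23 on the log2 scale (SE 0.06) and an adjusted p of 0.47. *Gja1* in β-Mfn1KO had a log2 fold change of −0.95 (SE 0.50) with an adjusted p of 0.69, and of −0.19 without Ctrl replicate 6 and β-Mfn2KO replicate 5.

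**Figure D4:**
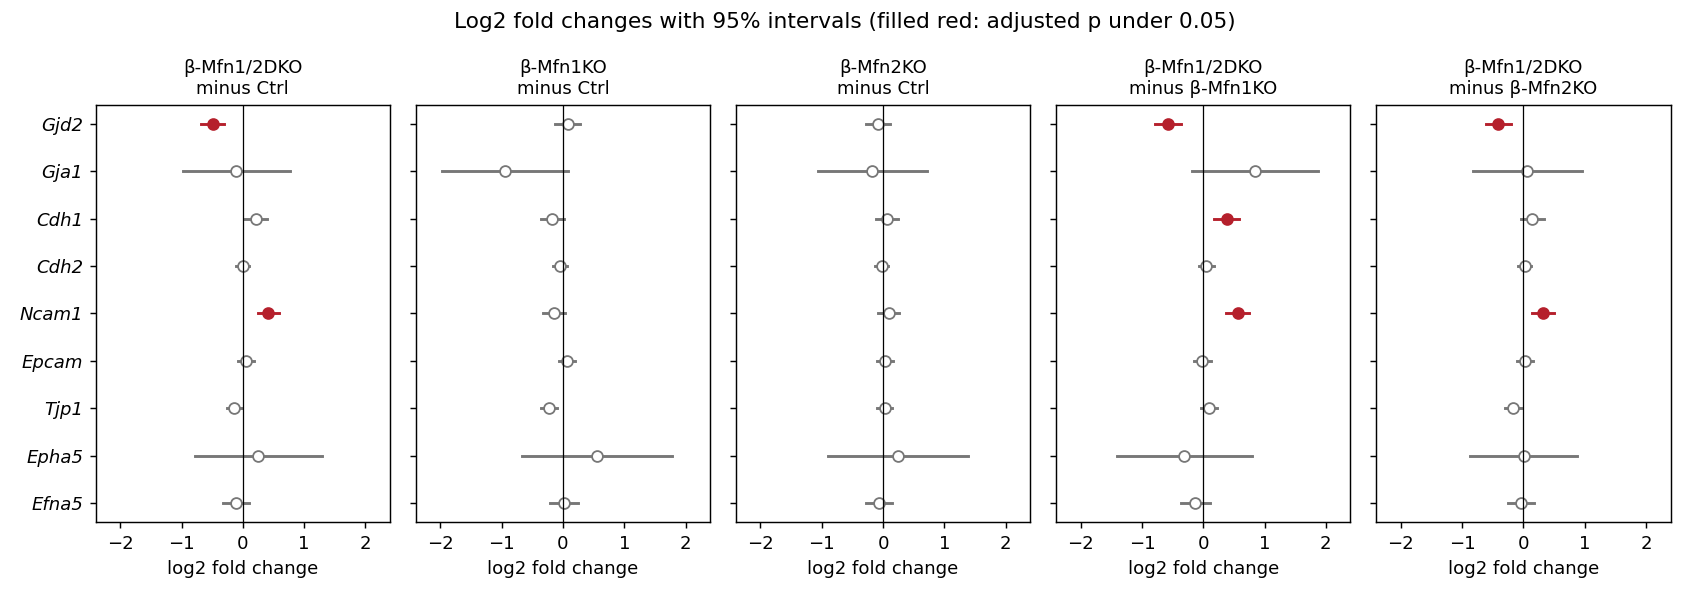
Log2 fold changes of the 9 genes with 95% intervals in 5 comparisons, with filled red points for an adjusted p under 0.05 in edgeR. *Gjd2* and *Ncam1* passed in the 3 comparisons that involve β-Mfn1/2DKO and *Cdh1* in 1 of them, while no gene passed in β-Mfn1KO or β-Mfn2KO against Ctrl.

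The double knockout was also set against each single knockout. These comparisons share the β-Mfn1/2DKO libraries with the one against Ctrl and are not independent of it. Against β-Mfn1KO 3 of the 9 genes passed, against 17.4% of all genes. *Gjd2* changed by −0.57 (log2, SE 0.10, adjusted p = 0.00032 in edgeR), *Ncam1* of 0.56 (SE 0.09, adjusted p = 0.00014) and *Cdh1* of 0.38 (SE 0.10, adjusted p = 0.0072), and in each the libraries of the groups did not overlap. That held for 4 of the 9 genes, *Gja1* included, and for 32% of the 12274 genes whose mean reached 100 normalized counts. *Gjd2* missed the threshold with depth class as a covariate (−0.40, adjusted p = 0.23). *Cdh1* missed the threshold without β-Mfn1/2DKO replicates 4 and 5 (0.28, adjusted p = 0.051) and with the acinar score as a covariate (0.25, adjusted p = 0.13). *Gja1* libraries did not overlap here either, at 130.5 to 246.5 against 69.8 to 126.7, but its log2 fold change of 0.84 (SE 0.49) did not pass (adjusted p = 0.30). About the same change passed with only these 2 groups in the fit (0.85, adjusted p = 0.018) and without Ctrl replicate 6 and β-Mfn2KO replicate 5 (0.84, adjusted p = 0.0053), while depth class as a covariate gave −0.28 (adjusted p = 1.0).

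Against β-Mfn2KO 2 of the 9 genes passed, against 13% of all genes. *Gjd2* had a log2 fold change of −0.41 (SE 0.10, 95% interval −0.61 to −0.21, adjusted p = 0.0059 in edgeR) and *Ncam1* of 0.33 (SE 0.09, 95% interval 0.15 to 0.50, adjusted p = 0.013), and in both the groups overlapped. The depths were nearest here, because 2 β-Mfn2KO libraries were above 40 M counts, at 56 and 59.5 M, though all β-Mfn1/2DKO libraries were deeper. Both of these libraries stood apart from their group, replicate 4 in the acinar sum (11185 CPM) and replicate 5 in the mesenchyme sum (362.3 CPM) and with the lowest *Gjd2* of the group (7916). With only the libraries above 40 M *Ncam1* changed by 0.52 (adjusted p = 0.019) and *Gjd2* had −0.25 (adjusted p = 0.48). Without β-Mfn1/2DKO replicates 4 and 5, *Gjd2* had −0.21 against β-Mfn2KO (adjusted p = 0.073). *Gjd2* also missed the threshold with only these 2 groups in the fit (−0.40, adjusted p = 0.059), with depth class (−0.30, adjusted p = 0.17) and with total-count scaling (−0.29, adjusted p = 0.051), where *Cdh1* passed instead (0.25, adjusted p = 0.046). *Ncam1* missed it with limma (0.28, adjusted p = 0.072). *Tjp1* had a log2 fold change of −0.17 (SE 0.06), with an adjusted p of 0.076, and passed in 8 of 36 alternatives, among them DESeq2 (−0.19, adjusted p = 0.011), limma (−0.29, adjusted p = 0.012) and the low-count filter (−0.18, adjusted p = 0.031).

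Whether losing *Mfn1* moved a gene otherwise without *Mfn2* than with it was tested as a difference of differences, β-Mfn1/2DKO minus β-Mfn2KO less β-Mfn1KO minus Ctrl. Of the 9 genes 2 passed, against 5.92% of all genes. *Gjd2* differed by −0.49 (SE 0.14, 95% interval −0.78 to −0.20, adjusted p = 0.036 in edgeR), and *Ncam1* by 0.47 (SE 0.12, 95% interval 0.21 to 0.73, adjusted p = 0.025). Both were near the threshold. *Gjd2* missed the threshold when any of 11 libraries was left out in turn, at −0.49 to −0.40 with adjusted p of 0.050 to 0.082. It also missed it without β-Mfn1/2DKO replicates 4 and 5 (−0.28, adjusted p = 0.099), with the acinar score (−0.37, adjusted p = 0.086) or depth class (−0.38, adjusted p = 0.23) as a covariate, and with total-count scaling (−0.35, adjusted p = 0.15), where *Cdh1* passed instead (0.45, adjusted p = 0.026). In all, *Gjd2* passed in 18 of 34 alternatives and *Ncam1* in 30 of 34. *Ncam1* missed the threshold without β-Mfn1KO replicate 1 (0.45, adjusted p = 0.056) or 2 (0.39, adjusted p = 0.068), without Ctrl replicate 6 and β-Mfn2KO replicate 5 (0.43, adjusted p = 0.057) and with limma (0.46, adjusted p = 0.060). *Cdh1* differed by 0.32 (SE 0.13) with an adjusted p of 0.18, and *Tjp1* by 0.07 (SE 0.09).

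The sexes were compared within the double knockout. The difference between males and females in the change of β-Mfn1/2DKO against Ctrl passed for none of the 9 genes and for 0% of all genes, with none of the 9 by DESeq2 or limma and 2 of the 9 at an unadjusted p under 0.05. These 2 were *Gjd2*, with −0.37 (SE 0.16, adjusted p = 0.97 in edgeR), and *Tjp1*, with 0.24 (SE 0.11, adjusted p = 0.97). *Gjd2* stood at 7680.4 and 8591 in the 2 β-Mfn1/2DKO females and at 7983, 5799.9 and 5458 in the 3 males, so both libraries with the acinar signal were male. Without β-Mfn1/2DKO replicate 3, which leaves these as the males, the *Gjd2* difference was −0.55 with an adjusted p of 0.045. It was −0.27 without replicate 5 and −0.05 without replicates 4 and 5, both with an adjusted p of 1.0 in edgeR. Within each sex 2 of the 9 genes passed, against 7.01% of all genes in females and 9.73% in males. *Ncam1* rose in both, by 0.46 (SE 0.12, adjusted p = 0.024 in edgeR) in females and 0.39 (SE 0.11, adjusted p = 0.029) in males. *Gjd2* fell in males, with −0.66 (SE 0.11, adjusted p = 0.00036), and had −0.28 (SE 0.12, adjusted p = 0.19) in females. *Tjp1* fell in females, with −0.28 (SE 0.08, adjusted p = 0.040), and had −0.04 (SE 0.07, adjusted p = 0.83) in males.

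Genes of the same families were counted beside the 9 in β-Mfn1/2DKO against Ctrl. There 16.5% of all genes passed, 6.86% lower and 9.59% higher. With genes of low count filtered out, 35.2% of the 15267 genes kept passed, so the share depends on how many genes of low count are included. Over 5 lists 26 further genes passed, of which *Cdh4*, *Cdh5*, *L1cam*, *Nrcam* and *Cntn4* also passed with depth class as a covariate, 5 in all. Among those that missed the threshold there, some log2 fold changes were not smaller, as in *Mcam* (0.81 to 0.95) and *Efnb2* (0.61 to 0.75). Others shrank, as in *Cdh8* (−0.60 to −0.37) and *Patj* (−0.20 to −0.0092). Of 19 further connexins and pannexins 1 passed, *Gjb2*, which encodes connexin 26. Its normalized counts were 15.4, 15.7, 18.4, 366.8 and 654.8 in β-Mfn1/2DKO against 8.72 to 45.6 in Ctrl, so only the 2 libraries with the acinar signal were above Ctrl. Without them its log2 fold change went from 3.52 (SE 1.004, adjusted p = 0.017 in edgeR) to −0.14 (adjusted p = 0.97).

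Of 22 further cadherins and catenins 5 passed higher, with *Ctnna3* among them, and 3 passed lower. The median log2 fold change was 0.08 over the 14 whose mean reached 100 normalized counts. *Cdh4*, which encodes R-cadherin, stood at 885.2, 964.8, 959.6, 1072 and 800 in β-Mfn1/2DKO, all above the Ctrl range of 505.1 to 597.4 (log2 fold change 0.78, SE 0.11, adjusted p = 1.8e-05 in edgeR). *Cdh8*, a neural cadherin, stood at 1594, 1991, 1909, 1388 and 1303, all below the Ctrl range of 2177 to 2989 (−0.60, SE 0.10, adjusted p = 0.00028). *Cdh5*, the cadherin of endothelial cells, rose by 0.77 (SE 0.12, adjusted p = 0.00011). *Ctnna3* passed with 0 counts in all Ctrl libraries and 3 to 6 counts in each β-Mfn1/2DKO library. Per unadjusted library total these are 0.0407 to 0.0616 CPM, under the 0.148 to 0.242 CPM that 3 counts make in Ctrl libraries. For this reason no fold is given and no rise can be read. *Ctnna3* missed the threshold with the replicate block (adjusted p = 0.15 in edgeR) and without β-Mfn1/2DKO replicates 4 and 5 (adjusted p = 0.11). *Ctnnb1*, β-catenin, named after its value was seen, rose by 0.26 (SE 0.05, adjusted p = 0.0013).

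Of 27 further tight junction genes 4 rose and 1 fell, with a median of 0.11 over the 19 whose mean reached 100 normalized counts. *Cldn4*, a claudin of epithelia, was at 6577, 6614, 7001, 22463 and 42757 in β-Mfn1/2DKO against 5175 to 8051 in Ctrl, and went from 1.36 (SE 0.37, adjusted p = 0.013 in edgeR) to 0.04 without replicates 4 and 5 (adjusted p = 0.96). *Cgnl1*, which encodes paracingulin, went from 0.76 (SE 0.25, adjusted p = 0.041) to 0.07 without them (adjusted p = 0.86). With the replicate block *Cgnl1* had 0.59 (adjusted p = 0.064). *Cldn5*, the claudin of endothelial cells, rose by 0.81 (SE 0.27, adjusted p = 0.041) and had 0.76 (adjusted p = 0.0997) without those libraries. In β-Mfn2KO against Ctrl, where 0.0559% of all genes passed, 1 gene of the lists did, *Cldn11*, at 53.6, 40.2, 40.4, 28.8 and 49.5 in β-Mfn2KO. Its Ctrl values were 1634, 71.9, 1070, 49.1, 955.9 and 765.8, so 2 of the 6 Ctrl libraries stood near the β-Mfn2KO level (log2 fold change −4.18, SE 0.62, adjusted p = 0.0022). With depth class as a covariate it had −4.09, with an adjusted p of 0.088 in edgeR. *Cldn11* was at 1324 to 2084 in β-Mfn1KO and at 632.2 to 1163 in β-Mfn1/2DKO. The low level of β-Mfn2KO was thus not seen in β-Mfn1/2DKO, which also lacks *Mfn2*. Ctrl pools mice with different alleles, and the cause of this pattern was not tested.

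Of 29 further immunoglobulin-type adhesion genes, the family of *Ncam1*, 6 rose and none fell, with a median of 0.23 over the 19 whose mean reached 100 normalized counts. The largest changes with many counts were in *Nrcam* and *L1cam*, relatives that bind in nerve cell contacts. *L1cam* stood at 1474, 1449, 1326, 1395 and 570.1 in β-Mfn1/2DKO and 224.5 to 457.6 in Ctrl, and *Nrcam* at 3224, 3158, 3083, 3441 and 1863 against 403.4 to 950.7. Neither overlapped Ctrl, and the β-Mfn1/2DKO library with the strongest acinar signal, replicate 5, was the lowest in both. The log2 fold changes were 2.09 (SE 0.24, adjusted p = 1.8e-06 in edgeR) for *L1cam* and 2.30 (SE 0.26, adjusted p = 1.8e-06) for *Nrcam*. Schwann and neural markers had a median of 0.79, with sums of 10.2 to 12.1 CPM in Ctrl and 11.9 to 21.6 in β-Mfn1/2DKO. Replicate 5 was also the lowest of β-Mfn1/2DKO in that sum, and the part of these cells was not tested. *Cntn4*, a contactin, rose by 2.55 (SE 0.38, adjusted p = 4.7e-05), from 1 to 4 counts a library in Ctrl to 44 to 146 in the deeper β-Mfn1/2DKO libraries. *St8sia4*, which encodes an enzyme that adds polysialic acid to NCAM, rose by 0.69 (SE 0.18, adjusted p = 0.0089), and had 0.50 without replicates 4 and 5 (adjusted p = 0.10). *Mcam*, an adhesion gene of vessel cells, rose by 0.81 (SE 0.15, adjusted p = 0.0005) and *Pecam1*, an endothelial adhesion gene, by 0.66 (SE 0.13, adjusted p = 0.0007).

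Of 19 further Eph receptors and ephrins 6 rose and none fell, with a median of 0.32 over the 11 whose mean reached 100 normalized counts. *Ephb4*, a receptor of vessel walls, stood at 215.2, 241.5, 182.7, 410.3 and 441.1 in β-Mfn1/2DKO against 115.8 to 186.1 in Ctrl (log2 fold change 1.07, SE 0.21, adjusted p = 0.00082 in edgeR), and its value without replicates 4 and 5 was 0.61 (adjusted p = 0.021). Its ligand *Efnb2* was at 337.4 to 527.1 against 241.3 to 310 and rose by 0.61 (SE 0.11, adjusted p = 0.00048). *Epha1* rose by 0.64 (SE 0.17, adjusted p = 0.011) and had 0.37 without those libraries (adjusted p = 0.20). Of the 6 that rose, *Efnb2*, *Ephb4* and, named after its value was seen, *Efna2* still passed without them. Of 8 endothelial markers, a list that itself holds *Cdh5* and *Pecam1*, 7 rose and none fell, with sums of 194.7 to 297.8 CPM in Ctrl, 195.7 to 219.4 in β-Mfn1KO, 210 to 276.4 in β-Mfn2KO and 272.3 to 430.2 in β-Mfn1/2DKO. None was at 0 in all libraries of a group, and the part of vessel cells in these values was not tested.

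**Figure D5:**
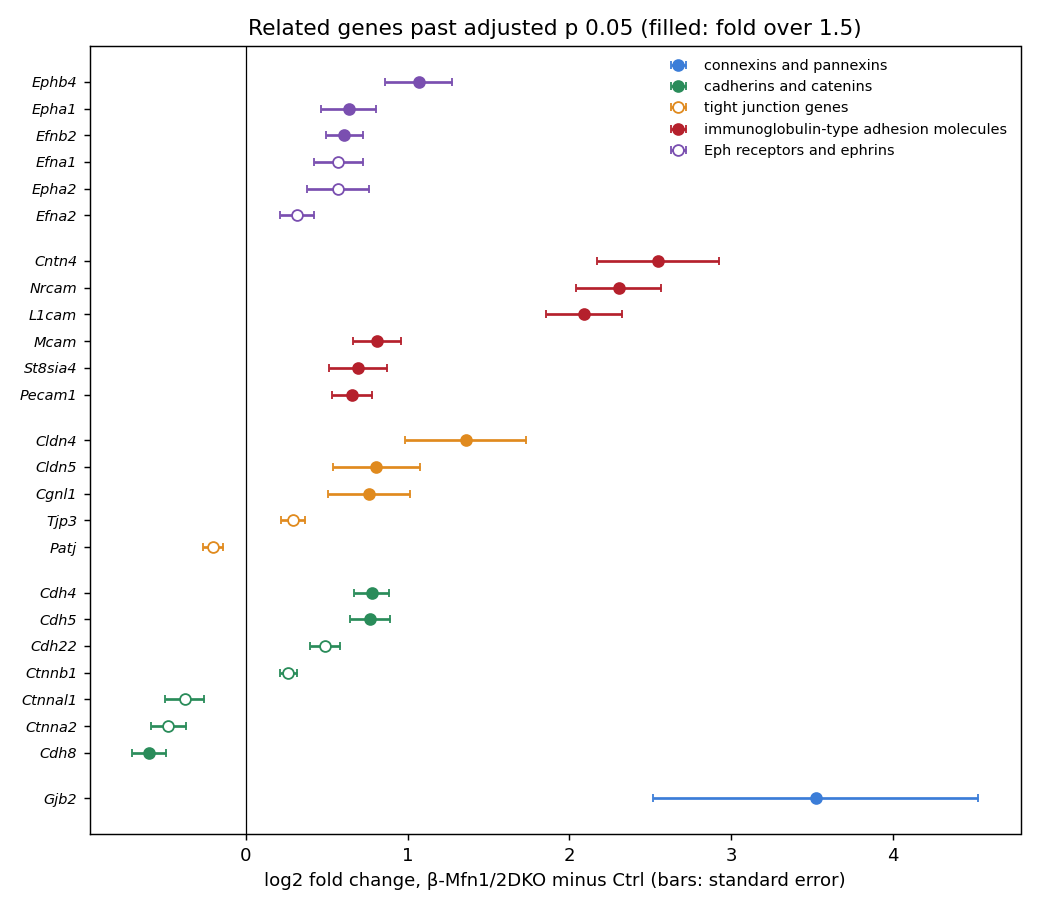
Log2 fold change of β-Mfn1/2DKO minus Ctrl with its standard error for the related genes that passed, coloured by list, filled where the fold was over 1.5. *Ctnna3*, with no count in Ctrl, is left out, and *Nrcam* (2.30), *L1cam* (2.09) and *Cntn4* (2.55) stand out in the immunoglobulin-type list.

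The genes whose pattern over the 20 libraries was most like that of *Gjd2* and *Ncam1* were ranked by the root mean square difference of log2 CPM centred on the Ctrl mean, among 12273 other genes whose mean reached 100 normalized counts. For *Gjd2* these were *Tmem163* (0.0936), which encodes a zinc-binding vesicle membrane protein, *Akr1c12* (0.102) and *Gm4419* (0.104), with log2 fold changes of −0.54, −0.49 and −0.53 in β-Mfn1/2DKO against Ctrl. For *Ncam1* these were *Spata13* (0.0946), *Ddr1* (0.0991), a collagen receptor, and *Jade3* (0.103), with log2 fold changes of 0.38, 0.40 and 0.44. These genes were picked for their likeness, so their fold changes are descriptions.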

How the data were processed

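RNAseq libraries of mouse islets in 4 genotypes were grouped by the labels. The authors trimmed reads with cutadapt 2.3, checked them with FastQC 0.11.8, aligned them to GRCm38 with STAR 2.6.1b and estimated gene counts with RSEM 1.3.1. Gene counts were deposited as whole, unscaled numbers, and the authors had dropped genes with no count in any library. The authors also deposited a signal made by dividing counts by factors from DESeq2 1.26.0, which served only for the limma alternative, as log2 of the value plus a pseudocount of 1. No sample column was left out (0 of them).

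The test was edgeR 4.0.16 on counts, run in R 4.3.3 (TMM, estimateDisp, glmQLFit, glmQLFTest) in 1 fit over 20 libraries with 1 coefficient per genotype, no filter and no covariate, with Benjamini-Hochberg adjustment over 28632 genes. Sex by genotype used a coefficient for each of both sexes in each genotype. An SE was taken as the size of the log2 fold change over the square root of F, and intervals are 95%. The members and lists were chosen with earlier results of these data known. From each family list the genes called against Ctrl were named (at most the 6 of smallest p). GENCODE release M21 gave symbols, exons and overlaps, and RefSeq the promoter. Marker lists of 10 cell types were summed as CPM. Lists of δ-cells and PP cells had no gene that passed against Ctrl (of 3 and 1).

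Alternatives were DESeq2 1.42.0, its size factors, total counts, TMM from nuclear genes, limma 3.58.1, filterByExpr, the groups compared alone, sex, replicate number, acinar score or depth class as covariates, drawing counts down to the smallest library (seed 20), and leaving libraries out. Depth ran from 12.4 to 122.9 M counts. Figures used Matplotlib.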

Additional observations from a re-analysis of the deposited data

Results flagged for a closer look

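Of 44 groups of 4 to 6 libraries tested with Dixon's criterion over the 9 genes and the 2 mitofusins, 4 held a library far from the others, and chance flags about 5% of groups. *Gja1* stood at 597.7 normalized counts in Ctrl replicate 6 and at 389.7 in β-Mfn2KO replicate 5, the libraries with the highest mesenchyme and macrophage marker sums. *Epcam* stood at 7915 in β-Mfn1/2DKO replicate 5, the library with the highest acinar sum. *Mfn1* stood at 1807 in β-Mfn2KO replicate 4, next to a Ctrl maximum of 1806.6. The part of the markers in these values was not tested.

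The change from losing *Mfn1* differed with and without *Mfn2* for 2 genes, by −0.49 on the log2 scale for *Gjd2* (adjusted p = 0.036 in edgeR) and by 0.47 for *Ncam1* (adjusted p = 0.025). *Gjd2* passed in 18 of 34 alternatives (−0.55 to −0.28) and *Ncam1* in 30 of 34 (0.39 to 0.62).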

How the results depend on the processing

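Over 63 results of the 9 genes, 1920 of 2072 alternative values kept direction and side of the threshold. With the sign kept, 30 no longer passed the threshold and 24 newly passed it. The other 98 changed sign, 72 of them where the first value was within 0.1 of 0. Of these 98, 2 had an adjusted p under 0.05 in the first or the alternative fit. *Ncam1* against Ctrl passed in all 35 alternatives (0.36 to 0.66) and *Gjd2* in 34 of 35 (−0.56 to −0.28). *Epha5* had 1 to 5 counts a library in Ctrl, and depth cannot be told apart from the double deletion against Ctrl. Where a value moved, the cause was not tested.

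Of the 9 genes, the number that passed in β-Mfn1/2DKO against Ctrl went from 2 to 4 with total-count scaling, to 3 with DESeq2, limma, the low-count filter and without Ctrl 6 and β-Mfn2KO 5, and to 1 with depth class, and ran from 2 to 3 with each library left out. Against β-Mfn2KO it went from 2 to 1 with only these groups, with depth class, above 40 M counts and without β-Mfn1/2DKO replicates 4 and 5, to 3 with DESeq2, its size factors, the low-count filter, counts drawn down and without Ctrl 6 and β-Mfn2KO 5, and ran from 2 to 3 with each library left out. Against β-Mfn1KO it went from 3 to 5 with total counts, to 4 with only these groups and without Ctrl 6 and β-Mfn2KO 5, and to 2 with the acinar score, with depth class and without β-Mfn1/2DKO replicates 4 and 5. For the difference of differences it went from 2 to 1 with limma, the acinar score, depth class, without β-Mfn1/2DKO replicates 4 and 5, and without Ctrl 6 and β-Mfn2KO 5, and ran from 0 to 2 when each library was left out, with 0 without β-Mfn1KO replicate 1 or 2. For sex it ran from 0 to 1 when each was left out. The related genes that passed went from 26 to 5 against Ctrl with depth class, from 1 to 0 in β-Mfn2KO (*Cldn11*, −4.09), and from 17 against β-Mfn2KO to 27 with DESeq2 and 9 with depth class. Against Ctrl some that missed the threshold with depth class had about the same change, as *Mcam* (0.95), and others a smaller one, as *Cdh8* (−0.37).

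Signs changed against Ctrl in β-Mfn1/2DKO as follows. *Gja1* (−0.11) was 0.0059 with total counts, 0.19 with limma, 0.65 without Ctrl 6 and β-Mfn2KO 5, and −0.25 to 0.65 with each library left out. *Cdh2* (0.00019) was −0.030 with DESeq2, −0.031 with its size factors, −0.00029 with nuclear TMM, −0.048 with limma, −0.019 with the low-count filter, −0.0021 with sex, −0.027 with counts drawn down, and −0.016 to 0.040 with each library left out. *Epha5* (0.25) was −0.10 with limma and −0.30 to 0.46 with each left out, *Efna5* (−0.11) was 0.032 with total counts, and *Epcam* (0.05) was −0.0025 to 0.095 with each left out. Elsewhere signs changed in more results than are listed here. Against β-Mfn2KO *Gja1* changed sign in 7 of 36 alternatives (−0.46 to 0.71) and passed in 1. *Epha5* changed sign there in 10 of 35 and *Epcam* in 6 of 36. *Gjd2* in β-Mfn1KO was −0.0036 with the acinar score, *Gja1* against β-Mfn1KO was −0.28 with depth class, and the difference of differences of *Tjp1* was −0.00080 with limma. The sex difference of *Cdh1* was −0.0092 without β-Mfn1/2DKO replicates 4 and 5, and that of *Ncam1* was 0.13 without them and 0.045 with the acinar score.

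Replicate numbers are shared between groups, and the labels tie them to no litter or batch. Same-numbered pairs had a mean correlation of deviations of 0.232 against −0.051 for other pairs, over 0.1 in 21 of 27 (−0.114 to 0.54), and 9 of 20 libraries correlated best with their own number. Most same-numbered pairs were also of the same sex, so a shared number and a shared sex cannot be told apart here. The correlations are at most a hint of pairing. Not every pair was over 0.1, and the fit without the block was kept, with the block as an alternative. With the replicate block, as without it, 2 genes passed in β-Mfn1/2DKO against Ctrl, 0 in each single knockout against Ctrl, 3 against β-Mfn1KO, 2 against β-Mfn2KO and 2 for the difference of differences. *Gjd2* against Ctrl was −0.52 and *Ncam1* 0.42 with the block, and *Gja1* was 0.66 (adjusted p = 0.071 in edgeR). Of the related genes that passed against Ctrl, *Cgnl1* (0.59, adjusted p = 0.064), *Epha2* (0.51, adjusted p = 0.052) and *Ctnna3* (adjusted p = 0.15) missed the threshold with the block. The others still passed. With the block and without β-Mfn1/2DKO replicates 4 and 5, 4 genes passed against Ctrl and 1 for the difference of differences. Those that newly passed against Ctrl were *Gja1* (0.70, adjusted p = 0.0497 in edgeR), with its sign changed, and *Tjp1* (−0.21, adjusted p = 0.042). In this fit *Gja1* was 0.052 in β-Mfn1KO, and *Epcam* was −0.0030 in β-Mfn1/2DKO against Ctrl.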
